A study of Homo sapiens with 2 samples.

Results

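The cleavage and polyadenylation factors examined here were 10 protein-coding genes, chosen by name as subunits of CFIm (NUDT21, CPSF6 and CPSF7), of CPSF (CPSF1, CPSF2, CPSF3, CPSF4 and FIP1L1) and of CstF (CSTF2 and CSTF3). All 10 were found among the 12014 genes listed for both libraries, each on 1 row, and none overlapped another listed gene on its own strand. The libraries came from ACHN cells, an established human renal cell carcinoma line, that had been infected with lentivirus carrying an shRNA that targets KIAA1429 (group shKIAA1429) or a non-targeting control (group shNC) and then selected with puromycin as stable lines. KIAA1429, also called VIRMA, is a subunit of the m6A methyltransferase complex. The sample labels call the first group a knockout, whereas the methods describe a knockdown, and which of the KIAA1429 shRNAs was sequenced is not stated. There was 1 library per group, so the differences below rest on single values, have no replicate check and carry no p-value. In bulk RNA from a culture, a lower level in every cell and a smaller share of cells with the transcript cannot be told apart.

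The 3′ end of nearly every mRNA is made by cutting the nascent transcript and adding a poly(A) tail. CPSF reads the AAUAAA signal and carries the endonuclease, CstF binds the GU-rich stretch downstream of the cut, and CFIm binds UGUA motifs upstream of it and favours the use of distal sites. VIRMA is known to associate with CFIm subunits, an association that has been connected to the placement of m6A near stop codons and in 3′ UTRs and to the choice of poly(A) site.

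VIRMA itself was at 3.92 FPKM with shNC against 3.22 FPKM with shKIAA1429, or 82.1% of the control. Its log2 change, of FPKM + 1 in shKIAA1429 over shNC, was -0.22. It was -0.10 after rescaling both libraries to 1000000 and -0.35 after removal of a trend with GC content and length. When all genes kept were divided into 20 bins of mean FPKM, 107 of the 535 genes in the bin of VIRMA had a lower log2 change. For ACHN cells with KIAA1429 shRNA, the paper reports significantly reduced KIAA1429 mRNA by RT-qPCR and reduced protein by western blot. The size of that reduction was not compared with the library values here. The markers of renal carcinoma epithelium PAX8, KRT8, KRT18, VIM and MET were listed at 63.0 to 368.3 FPKM. Of 5 genes that mark other cell types, 4 were not listed (PTPRC, ALB, PECAM1 and GFAP), and the remaining one, COL1A1, was at 1.08 FPKM with shNC and 1.62 FPKM with shKIAA1429. FPKM values are fragments scaled to transcript length and library size. They can therefore be compared between genes, but they keep no read count, so the depth behind each value is unknown. The 13 mitochondrial genes made up 42.2% of the summed FPKM with shNC and 34.6% with shKIAA1429.

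The factors act on short RNA signals that their own transcripts also carry. Windows of 30 bases around the AATAAA signal are shown for the 3 CFIm subunits, for the endonuclease gene CPSF3 and for CSTF2, since these genes hold the levels and ratios described below. They were read from the longest full-length coding transcript of each gene in GENCODE 29, are written 5′ to 3′ in DNA letters on the transcript strand, and have the signal in capitals.
NUDT21: tattgtcatttcAATAAAaaatatttgaaa
CPSF6: tcttgtattgaaAATAAAacaaacttttga
CPSF7: atatttttaaatAATAAAtggggtgtgagc
CPSF3: tttgttacctaaAATAAAatgcattcgttt
CSTF2: tctgtgacttgaAATAAActttgaacacaa

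On GRCh38 the windows lie at chr16:56429138-56429167 on the minus strand (NUDT21), chr12:69274324-69274353 on the plus strand (CPSF6), chr11:61402659-61402688 on the minus strand (CPSF7), chr2:9473062-9473091 on the plus strand (CPSF3) and chrX:100840889-100840918 on the plus strand (CSTF2). The signal ended 17 bases before the annotated transcript end in NUDT21 and in CPSF6, and 30 bases before it in CPSF7. In CPSF3 it ended 13 bases before that end and in CSTF2 26 bases. AATAAA was present in the last 50 bases of the transcript for 8 of the 10 factors, against 64.0% of the 10636 genes kept that had such a transcript. In CSTF3, which is counted among the 8, the signal ended 3 bases before the annotated transcript end. In CPSF1 and CPSF4 neither AATAAA nor the variant ATTAAA was found in the last 50 bases. The motif that NUDT21 binds, in DNA letters TGTA, occurred in the last 100 bases for 8 of the 10, against 55.8% of these genes. Only the transcript strand was searched, and copies of the TGTA motif may share a letter with the signal where they meet.

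The annotated 3′ UTRs of the factors were of very unlike length. That of CPSF3 had 75 bases and that of CPSF2 had 10401 bases, with 3579 bases in NUDT21 and 4850 bases in CPSF6. The median over the 10 was 667 bases, and that of all genes kept was 1283 bases. These lengths are those of the longest coding transcript, and some of the factors have further annotated ends. With near ends merged, coding transcripts had 5 ends in CPSF7, 3 in CPSF6 and in CSTF3, and 2 in CPSF1, CPSF4 and FIP1L1. The transcripts of CPSF6 and NUDT21 had a GC content of 37.1% and 37.4%, that of CPSF7 had 51.4%, and the median of all genes kept was 48.5%.

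Among the CFIm subunits, CPSF6 was lower and CPSF7 was higher with shKIAA1429, and the direction of NUDT21 depended on the processing. NUDT21 (ENSG00000167005.13_3; GRCh37 chromosome 16, 56463045 to 56486111, minus strand) is the small subunit that recognises UGUA. It stood at 35.5 FPKM with shNC and at 34.5 FPKM with shKIAA1429, 97.1% of the control. On the log2 scale of FPKM + 1, genes of low level appear to change less than they do. The log2 change of NUDT21 was -0.04. Of the 535 genes in its bin of mean FPKM, when all genes kept were divided into 20 bins, 231 had a lower log2 change.

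CPSF6 (ENSG00000111605.16_2; GRCh37 chromosome 12, 69633317 to 69668138, plus strand) encodes a large CFIm subunit with a domain rich in arginine. It was at 16.7 FPKM with shNC and 14.1 FPKM with shKIAA1429, 84.5% of the control. Its log2 change of -0.23 was the lowest of the 10 factors, and 91 of the 535 genes of its bin were lower. CPSF7 (ENSG00000149532.15_4; GRCh37 chromosome 11, 61170113 to 61197503, minus strand) encodes the related subunit that can take the place of CPSF6 beside NUDT21. It was at 10.7 FPKM with shNC and 12.3 FPKM with shKIAA1429, a log2 change of 0.18, and 330 of the 535 genes of its bin were lower. When the trend of log2 change with GC content and transcript length across all genes was removed, an alternative chosen after seeing the data, NUDT21 was at -0.20, CPSF6 at -0.45 and CPSF7 at 0.23.

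All 5 CPSF subunits were higher in the shKIAA1429 library, with log2 changes between 0.23 and 0.41. Among all genes kept, 57.3% were higher. Of the 5, only CPSF2 and FIP1L1 exceeded the upper quartile of all genes kept, a log2 change of 0.27. CPSF3 (ENSG00000119203.13_2; GRCh37 chromosome 2, 9563697 to 9613230, plus strand) encodes the endonuclease that cuts the transcript. It was the most abundant of the 5, at 20.9 FPKM with shNC and 25.0 FPKM with shKIAA1429, 1.19 times the control level. CPSF2 (ENSG00000165934.12_2; GRCh37 chromosome 14, 92588281 to 92638489, plus strand) encodes its structural partner, which has the same fold but is not itself a nuclease. It was the least abundant of all 10 factors, at 5.29 FPKM with shNC and 7.35 FPKM with shKIAA1429. Its ratio of 1.39 and its log2 change of 0.41 were the highest of the 10, and 444 of the 535 genes of its bin were lower. Once the same trend was removed its log2 change was 0.24, and CSTF2 was then the highest of the 10, at 0.40.

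CPSF1 (ENSG00000071894.16_3; GRCh37 chromosome 8, 145618444 to 145634733, minus strand) encodes the large scaffold of the part of CPSF that reads the signal. It was at 8.63 FPKM with shNC and 10.6 FPKM with shKIAA1429, a log2 change of 0.27. CPSF4 (ENSG00000160917.14_2; GRCh37 chromosome 7, 99036545 to 99054994, plus strand) encodes the zinc finger subunit that contacts AAUAAA together with WDR33. It was at 11.0 FPKM with shNC and 13.0 FPKM with shKIAA1429, a log2 change of 0.23. FIP1L1 (ENSG00000145216.15_3; GRCh37 chromosome 4, 54243810 to 54327028, plus strand) encodes the subunit that brings in poly(A) polymerase. It was at 7.58 FPKM with shNC and 9.59 FPKM with shKIAA1429, a log2 change of 0.30. Each of the 5 CPSF genes stood above more than 65% of the genes of its own bin, from 65.6% for CPSF4 to 83.0% for CPSF2.

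Both CstF subunits were likewise higher with shKIAA1429, as were 57.3% of all genes kept. CSTF2 (ENSG00000101811.13_2; GRCh37 chromosome X, 100075348 to 100095921, plus strand) encodes the subunit that binds GU-rich RNA. It was at 7.77 FPKM with shNC and 9.80 FPKM with shKIAA1429, a log2 change of 0.30, above 76.1% of its bin. CSTF3 (ENSG00000176102.11_2; GRCh37 chromosome 11, 33098734 to 33183917, minus strand) encodes the scaffold that holds the CstF complex together. It was at 7.48 FPKM with shNC and 8.47 FPKM with shKIAA1429, a log2 change of 0.16, above 56.8% of its bin. After removal of the trend with GC content and length, CSTF3 was at 0.02 and CSTF2 at 0.40. CSTF3 can also end early at an intronic poly(A) site, and values per gene do not separate such short transcripts from the full-length one.

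**Figure D1:**
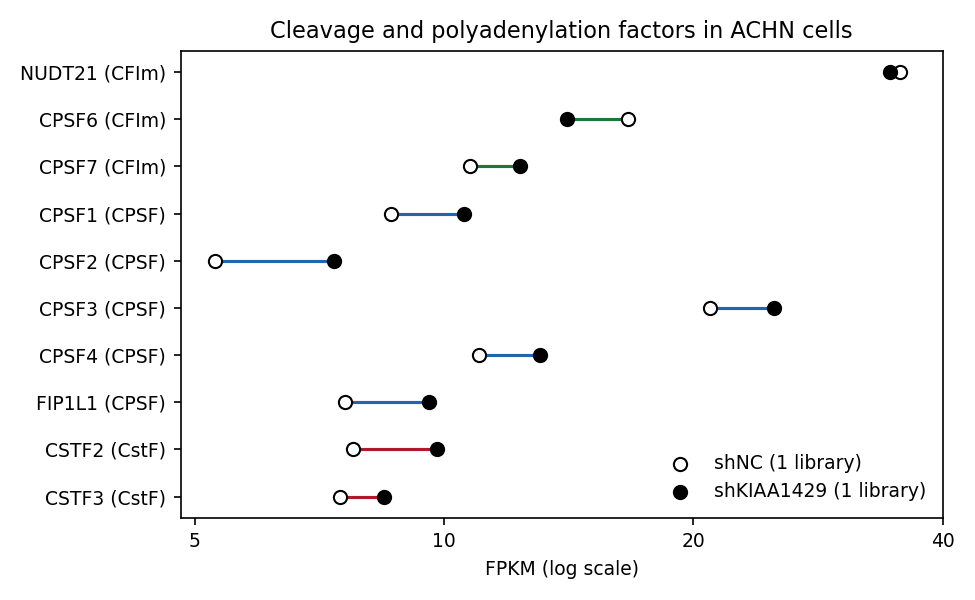
FPKM of each factor on a log axis in the shNC library (open circles) and the shKIAA1429 library (filled circles), 1 library each, with a line joining the values of a gene in the colour of its complex. NUDT21 is highest and CPSF2 lowest in both libraries, and CPSF6 is the gene with the widest gap in the downward direction.

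The order of the 10 factors by FPKM was the same in both libraries, and each of the 10 kept its rank. From the highest it ran NUDT21, CPSF3, CPSF6, CPSF4, CPSF7, CPSF1, CSTF2, FIP1L1, CSTF3 and CPSF2. The span from NUDT21 to CPSF2 was 6.72-fold with shNC and 4.69-fold with shKIAA1429. CSTF2, FIP1L1 and CSTF3 all lay between 7.48 and 7.77 FPKM in the shNC library, and without replicates it cannot be said whether these neighbours differ. NUDT21 stood above 92.7% of the genes kept with shNC and above 92.0% with shKIAA1429, whereas CPSF2 stood above 47.4% and 56.7%.

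Relative amounts of the subunits were compared as ratios of FPKM within a library, which the scaling of the libraries cannot move. CPSF6 was 1.55 times as abundant as CPSF7 in the shNC library and 1.14 times in the shKIAA1429 library, a difference of -0.44 in the log2 ratio. CPSF6 and CPSF7 summed to 27.4 FPKM in the shNC cells and to 26.4 FPKM in the shKIAA1429 cells. The log2 ratio of NUDT21 to that sum was 0.37 with shNC and 0.39 with shKIAA1429. The ratio of CPSF6 to CPSF7 was thus lower with shKIAA1429, while their sum relative to NUDT21 was nearly level between the libraries. A ratio does not show which of the 2 genes differed. After rescaling to 1000000, the log2 changes of CPSF6 and CPSF7 were -0.06 and 0.37, and their sum was at 109.4% of the control, against 96.4% as deposited. The log2 changes of all genes kept had quartiles of -0.15 and 0.27.

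Within CPSF, the ratio of CPSF2 to its partner CPSF3 was 0.25 with shNC and 0.29 with shKIAA1429, a log2 difference of 0.22. That difference was not kept once the trend with GC content and length was removed. The log2 changes of CPSF2 and CPSF3 were then 0.24 and 0.26. The ratio of CPSF1 to CPSF3 differed by 0.04 on the log2 scale and that of CPSF4 to FIP1L1 by -0.10. In CstF, the ratio of CSTF2 to CSTF3 was 1.04 with shNC and 1.16 with shKIAA1429. With the same trend removed, the log2 changes of CSTF2 and CSTF3 lay farther apart, at 0.40 and 0.02. CSTF2T is an intronless copy of CSTF2 with a closely related protein, and reads could have been divided between them. CSTF2 was at 0.94 times the level of CSTF2T with shNC and at 1.11 times with shKIAA1429, and their summed FPKM was 16.1 and 18.7. Summed over its members, CFIm in the shKIAA1429 library was at 96.8% of the shNC level, CPSF at 122.6% and CstF at 119.9%. These sums moved with the scaling: after rescaling to 1000000, computed for the sums after seeing the data, they were at 109.9%, 139.2% and 136.0%.

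**Figure D2:**
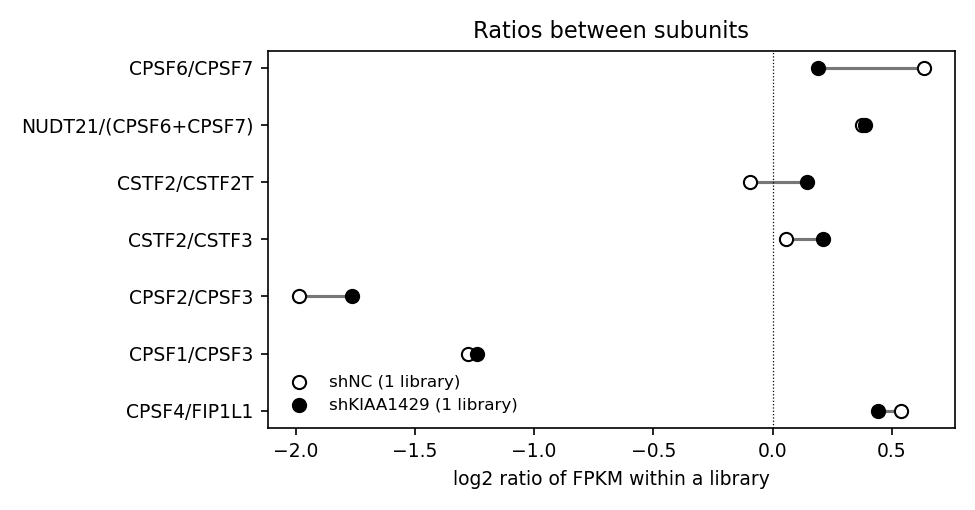
Log2 ratio of FPKM between pairs of subunits within the shNC library (open circles) and within the shKIAA1429 library (filled circles), 1 library each. The ratio of CPSF6 to CPSF7 moves farthest, from 0.63 to 0.19, and that of NUDT21 to the sum of CPSF6 and CPSF7 lies at 0.37 and 0.39.

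Set against all genes, these differences were small. None of the 10 factors passed a log2 change of 1.5 in either direction, the fold limit of the study's methods, which 0.635% of the 10702 genes kept passed. The study used that limit with DESeq2 and together with a limit on P. Here it was set on the log2 change of FPKM + 1, without a p-value. None passed 0.5 either, a limit that 16.0% of the genes kept passed. Of the 10 factors 8 were higher with shKIAA1429, and 57.3% of the genes kept were. The median log2 change of the factors was 0.23, beside 0.06 for all genes kept, whose quartiles were -0.15 and 0.27. Of the 10 factors, 6 lay between these quartiles, CPSF2, FIP1L1 and CSTF2 lay above the upper one and CPSF6 lay below the lower one.

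**Figure D3:**
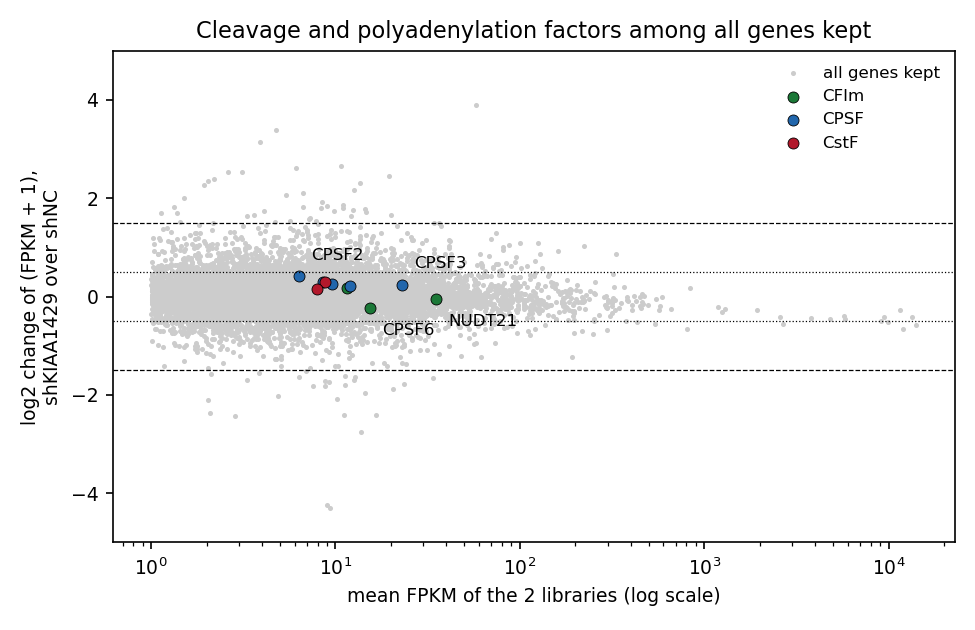
Log2 change of (FPKM + 1) against the mean FPKM of both libraries on a log axis for the 10702 genes kept (grey) and the 10 factors coloured by complex, with dotted lines at 0.5 and dashed lines at 1.5 in both directions. All 10 factors lie between the dotted lines, at -0.23 to 0.41.

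When both libraries were brought to a common sum of 1000000, which raised the median of all genes by 0.18 on the log2 scale, NUDT21 was at 0.14 and CPSF6 at -0.06. CPSF2, FIP1L1 and CSTF2 then passed 0.5, at 0.63, 0.51 and 0.50, and so did 23.9% of all genes kept in the upward direction. Without the mitochondrial genes in that sum, NUDT21 was at -0.04 and CPSF6 at -0.24, and 0 factors passed 0.5. The part of the mitochondrial share in these values was not tested beyond this comparison.

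**Figure D4:**
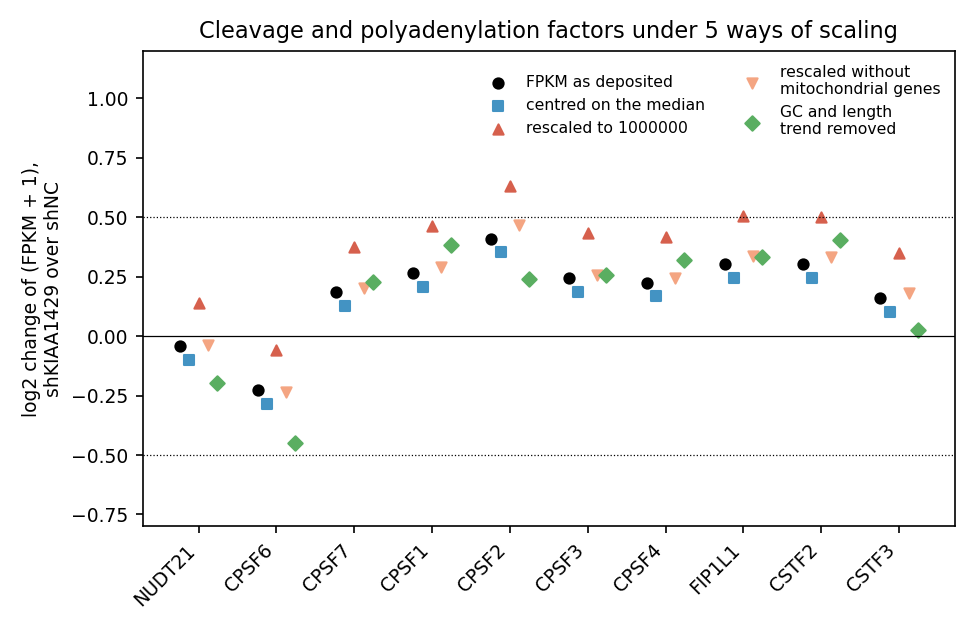
Log2 change of (FPKM + 1) for each factor with the FPKM as deposited (circles), centred on the median of all genes kept (squares), rescaled to a sum of 1000000 with (upward triangles) and without (downward triangles) mitochondrial genes, and with the trend with GC content and transcript length removed (diamonds), from 1 library per group. CPSF6 is below 0 and the 5 CPSF and both CstF genes are above 0 under all 5, while NUDT21 is above 0 after rescaling with mitochondrial genes and below 0 otherwise. Of all genes kept, 57.3% are above 0 as deposited and 74.6% after rescaling with mitochondrial genes.

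The other genes of the cleavage and polyadenylation machinery were followed as a list of 14. Of these, 12 were higher and 2 were lower with shKIAA1429, where 57.3% of all genes kept were higher. The median log2 change of the list was 0.15. After removal of the trend with GC content and length the median was 0.06, as was that of all genes kept. WDR33, which shares the AAUAAA contact with CPSF4, was at 4.84 and 5.33 FPKM with shNC and shKIAA1429, and SYMPK, which joins CPSF to CstF, was at 6.86 and 6.93 FPKM. CSTF1, the remaining CstF subunit, was at 6.93 and 7.40 FPKM. PCF11, a termination factor of CFIIm, was the one gene of this list above 0.5, a value that 9.90% of the genes kept exceeded, at 4.12 FPKM with shNC and 6.62 FPKM with shKIAA1429, a log2 change of 0.57. After removal of the trend with GC content and length it was at 0.43. RBBP6, a large CPSF-associated protein needed for cleavage, was next with 7.92 and 11.2 FPKM, a log2 change of 0.45. PPP1CA, a catalytic subunit of protein phosphatase 1 that also works in many other complexes, was the one gene below -0.5, at 44.4 FPKM with shNC and 27.5 FPKM with shKIAA1429, a log2 change of -0.67, and 6.12% of the genes kept were below -0.5. PABPN1, the nuclear poly(A) binding protein, was at 20.1 and 16.6 FPKM, and it overlaps the listed read-through gene BCL2L2-PABPN1 on its strand, with which reads may be shared.

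Genes of related 3′ end machines were also followed. The Integrator complex cuts small nuclear RNAs and holds INTS9 and INTS11, the relatives of CPSF2 and CPSF3. Its 14 genes had a median log2 change of 0.05, with 8 higher and 6 lower and 0 past 0.5. The share that was higher was 57.1%, beside 57.3% of all genes kept, of which 16.0% passed 0.5 in either direction. INTS9 was at 4.36 and 4.79 FPKM with shNC and shKIAA1429, beside 5.29 and 7.35 FPKM for CPSF2. INTS11 was at 3.06 and 3.51 FPKM, beside 20.9 and 25.0 FPKM for CPSF3. INTS2 and INTS7 had the highest log2 changes of that list, 0.44 and 0.32, and INTS10 and INTS4 the lowest, -0.26 and -0.15. The processing of histone mRNAs, which end without a poly(A) tail, borrows CPSF2 and CPSF3. Of 5 other genes of that process, 4 were kept, and their median was 0.17, between -0.06 for LSM10 and 0.30 for CASP8AP2, with ZNF473 at 0.13. SLBP, which binds the histone stem-loop, was at 31.1 and 36.2 FPKM, a log2 change of 0.22.

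Of 12 RNA-binding proteins that are known to bias the choice of poly(A) site, 8 were higher and 4 lower. Their median log2 change was 0.03, and 0 were past 0.5. Among all genes kept, 57.3% were higher and 16.0% passed 0.5 in either direction. HNRNPH1 and U2AF2 had the highest values of the 12, 0.37 and 0.24. SCAF4, which keeps RNA polymerase II from ending at early sites, had the lowest, at 11.7 FPKM with shNC and 8.85 FPKM with shKIAA1429, a log2 change of -0.36, followed by ELAVL1 at -0.21.

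**Figure D5:**
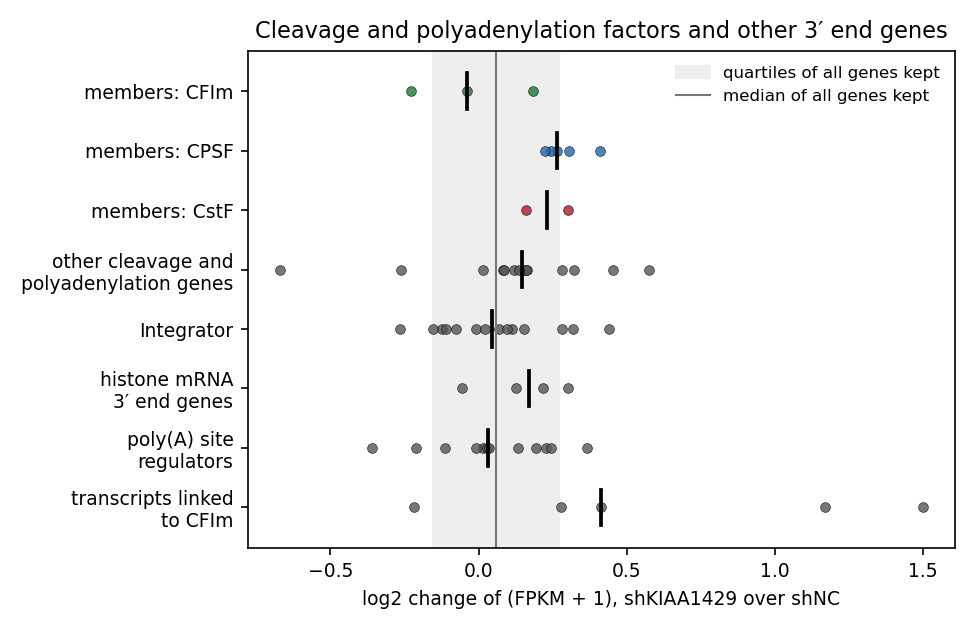
Log2 change of (FPKM + 1) for each gene (points) of the CFIm, CPSF and CstF factors and of the lists of other 3′ end genes, with the median of each list as a thick bar and the median and quartiles of all genes kept as a line and a grey band, from 1 library per group. The CPSF and CstF points lie at 0.16 to 0.41, to the right of the line, and the CFIm points lie on both sides of it.

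Values were also taken for 5 transcripts whose 3′ UTR choice has been linked to CFIm in other cells. A level per gene does not show which poly(A) site was used, so these values describe abundance only. TIMP2, an inhibitor of matrix metalloproteinases, was at 17.4 FPKM with shNC and 51.0 FPKM with shKIAA1429, 2.93 times the control, with a log2 change of 1.498. That value lay beside the limit of 1.5, and its side of it depended on the processing. It was 1.54 with a pseudocount of 0.1, 1.72 after rescaling to 1000000 and 1.55 when that sum left out mitochondrial genes. It was 1.44 when centred on the median and 1.47 after removal of the trend with GC content and length. CCND1, the cyclin of the G1 phase, was at 42.4 and 96.6 FPKM, a log2 change of 1.17. Both were above 0.5, a value that 9.90% of the genes kept exceeded. VMA21, an assembly factor of the vacuolar ATPase, was at 0.41 on the log2 scale and DICER1, the nuclease that makes microRNAs, at 0.28. The kinase PAK1 was at -0.22. Of the 5 genes, 4 were higher and 1 was lower, where 57.3% of all genes kept were higher. The median log2 change of the 5 was 0.41. The list was written with earlier results of these data known, so its share and median cannot be read as a result about such transcripts.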

How the data were processed

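Poly(A) RNA of ACHN cells was sequenced in strand-specific paired-end libraries, 1 with shKIAA1429 and 1 with shNC. The authors deposited FPKM per gene, for protein-coding genes above 0.5 FPKM in at least 1 library. The submitters' processing notes name cutadapt 1.9, HISAT2 2.0.4 and StringTie 1.3.4d, and their parameters are not given in the sources used here. The identifiers carry the suffix GENCODE gives to genes placed on GRCh37, and gene positions are printed as in the files.

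For the present text, the log2 of (FPKM + 1) in shKIAA1429 over (FPKM + 1) in shNC was computed, for 1 row per symbol (the highest of the 7 symbols on several rows) and a mean FPKM of at least 1, which kept 10702 genes. With 1 library per group nothing was tested, and intervals cannot be given without counts. All 10 factors are named. From each other list the 2 highest and 2 lowest changes and those past 0.5 are named, and a few more were named for their role after their values were seen. The factors and lists were chosen with earlier results of these data known. Lengths, GC content and 3′ end sequences came from GENCODE 29 on GRCh38, with a match of Ensembl identifiers for 99.3% of genes. The steps were tested on simulated data. Alternatives were a pseudocount of 0.1, centring, 2 rescalings, other filters and limits, summed rows, leaving out overlapping genes and subtraction of median changes in 10 by 10 bins of GC content and transcript length. Protein sequences were not used here, and some listed genes are not reported here. Python 3.11.15, NumPy 2.4.6, pandas 2.3.3 and matplotlib 3.10.9 were used.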

Additional observations from a re-analysis of the deposited data

How the results depend on the processing

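The count of 0 factors past 1.5 held under every alternative, and with a limit of 1 or 0.5 it was also 0. Rescaling each library to a sum of 1000000 had the widest effect. It gave 3 factors past 0.5, moved the median of the factors to 0.42 beside 0.24 for all genes kept, and moved the medians of the lists to 0.33 (other cleavage and polyadenylation), 0.23 (Integrator), 0.37 (histone mRNA 3′ ends), 0.21 (poly(A) site regulators) and 0.62 (transcripts linked to CFIm). Without mitochondrial genes in the sum, each of these medians moved by less than 0.1. Removing the GC content and length trend, an alternative chosen after seeing the data, moved the last of these from 0.41 to 0.24, and the cause was not tested. Across all alternatives NUDT21 ranged from -0.20 to 0.14, CPSF6 from -0.45 to -0.06, CPSF2 from 0.24 to 0.63 and CSTF3 from 0.02 to 0.35. The count of factors that were higher was 8, or 9 after rescaling to 1000000, when 74.6% of all genes kept were higher against 57.3% as deposited. Counts past 0.5 and counts of higher factors were recomputed under alternatives added after seeing the data. With 1 library per group, no library could be left out. No paired analysis was possible because each group has 1 library. Without read counts, the smallest difference that depth would resolve for these genes, at 5.29 to 35.5 FPKM, is unknown.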
